A study of Mus musculus with 32 samples.

Results

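Imprinted genes were examined across a cultured mouse lung endothelial cell (EC) line in which Dnmt1 had been silenced before cytokine treatment. The members are 44 genes taken by symbol from a list of well-known mouse imprinted genes, and all 44 were found among the 54429 symbols of the count table. Bulk RNA-seq covered the Veravec line, labelled as lung ECs, transfected either with the siRNA control, called si-control, or with siRNA that targets Dnmt1, called si-dnmt. Each siRNA was combined with no cytokine, TNF (TNFα at 10 ng/mL), IFN (IFNγ at 1000 U/mL) or TNF + IFN, with cytokine exposure for 16 h. The 8 groups held 4 libraries each, and the 32 libraries carried 17362546 to 33500030 counts (median 20859668).

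An imprinted gene is transcribed mainly from the copy inherited from a single parent. The choice is marked by DNA methylation laid down in the egg or sperm at a differentially methylated region (DMR), and DNMT1, the maintenance methyltransferase, copies that methylation onto the new strand each time a cell divides. Where the DMR is the promoter of the gene, methylation keeps the marked copy off. In other cases the DMR controls a noncoding RNA or an insulator and acts on neighbouring genes, so that loss of methylation can lower as well as raise expression. Gene counts do not separate the parental copies, and the line was described by no cross of strains in the sources used here, so a change in level below is not a measure of imprinting itself. In bulk RNA, fewer cells of a type and less RNA per cell cannot be told apart.

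The siRNA target was examined first. Dnmt1 lay between 86.5 and 211 CPM (library counts scaled to a common size with TMM factors) in the 16 si-control libraries and between 5.10 and 17.3 CPM in the 16 si-dnmt libraries, so the siRNAs did not overlap. In edgeR's quasi-likelihood test its log2 fold change was −3.76 ± 0.37 (SE) without cytokine, −3.87 ± 0.37 with TNF, −3.95 ± 0.38 with IFN and −4.08 ± 0.38 with TNF + IFN. The line carried its defining markers: all 12 endothelial marker genes examined passed the expression filter, and their summed level was 3800 to 10100 CPM. Their median log2 fold change with si-dnmt was −0.15, −0.17, −0.03 and −0.23 over the 4 states. Emcn was called lower in 2 states, Kdr was called higher in 2 and Eng in 1, and the others were called in 0. Leukocyte, fibroblast and epithelial markers summed to at most 133, 88.0 and 25.9 CPM, with Ptprc, Lum, Postn, Epcam and Sftpc at no more than 3 counts in any library. Lyz2 made up most of the leukocyte sum. It ranged from 5.11 to 132 CPM over the si-control libraries, and from 1.21 to 71.2 over those with si-dnmt. Csf1r, Pdgfra, Col1a1, Col3a1, Fbln1, Krt18 and Krt19 from these lists also passed the expression filter. Pericyte markers summed to 8.0 to 70.5 CPM in si-control and 40.3 to 232 CPM in si-dnmt. Most of that sum was Acta2, smooth muscle actin (log2 fold change 2.83 ± 0.54, 2.58 ± 0.54, 1.94 ± 0.52 and 1.26 ± 0.51 over the 4 states, called in the first 3), while the pericyte genes Rgs5, Cspg4 and Abcc9 held no more than 3 counts in any library. Notch3 (1.03 to 1.65 over the states, called in 0), the smooth muscle myosin gene Myh11 (1.09 to 3.13, called in 1) and the fibroblast gene Col1a1 (1.36 to 3.73, called in 1) were also above 0 in all 4 states, whereas the pericyte receptor gene Pdgfrb had −0.41 to 0.15. The other fibroblast genes tested did not share the Col1a1 pattern. Col3a1 had −1.54 to 1.6 (called higher in 1 state and lower in 2), and Pdgfra had −0.78 to 1.76 (called in 0). Fbln1 was at or below −0.66 in all 4 states (called in 0). The part of these genes in the results on imprinted genes was not tested.

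Of the 44 imprinted genes, 31 passed the expression filter (at least about 10 counts in 4 or more libraries of any groups) and were tested among 15250 genes. A further 3 were low, with more than 3 counts in at least 1 library but under the filter, and 10 were silent, with no more than 3 counts in every library. Silent genes were concentrated in entire domains. Both members of the H19-Igf2 domain were silent, as were all 5 members of the Dlk1-Meg3 domain (Dlk1, Meg3, Rian, Mirg and Rtl1). The other silent genes were Zim1, a zinc finger gene beside Peg3, Ascl2, a transcription factor of the placenta, and Zdbf2. Igf2, the fetal growth factor, and Dlk1, Meg3, Mirg and Rtl1 held 0 counts in all 32 libraries.

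**Figure D1:**
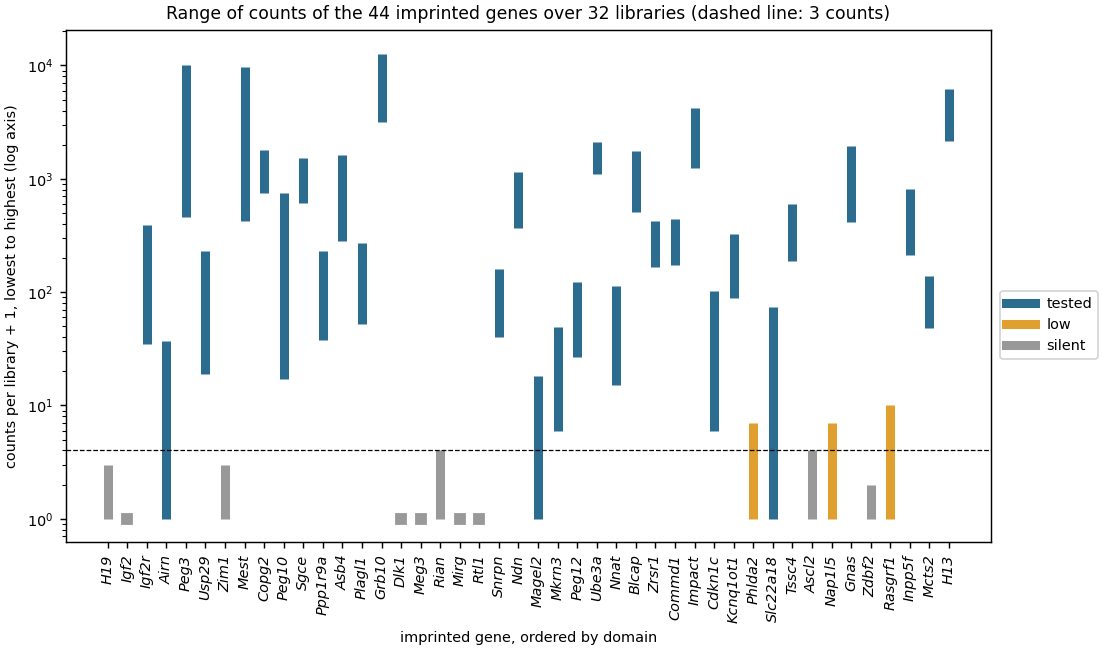
Lowest to highest count in the 32 libraries, plus 1 on a log axis, for each of the 44 imprinted genes ordered by domain. The 31 tested genes are blue, the 3 low genes orange and the 10 silent genes grey, and the dashed line of 3 counts over all libraries is the limit that defines the silent genes.

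The limit of 3 counts was set over all 32 libraries, so a silent gene is at or under it with either siRNA by definition. A gene that passed the limit in si-dnmt libraries alone, such as Phlda2, counts as low. H19, the maternally expressed noncoding RNA whose paternal promoter is normally methylated, had 6 counts summed over the 16 si-control libraries and 5 over the 16 si-dnmt libraries. The depth-corrected ratio was 0.801 (95% exact interval 0.193 to 3.15, counting error only), which does not resolve a change of a few fold in either direction. Ascl2 had 4 and 10 counts in the same sums (ratio 2.40, interval 0.693 to 10.5), Zim1 4 and 6, Rian 3 and 2, and Zdbf2 0 and 2. A count of 0 in a library allows up to 3 counts, which is 0.0896 CPM in the deepest library and 0.173 CPM in the shallowest. A 0 in a library therefore does not exclude expression below that level, and single counts such as those of H19 lay below it.

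The 3 low genes were Phlda2, Nap1l5 and Rasgrf1. Phlda2, a maternally expressed brake on placental growth, had 2 counts summed over the si-control libraries and 29 over the si-dnmt libraries, a ratio of 13.9 with a 95% interval of 3.52 to 120 for counting error only. The counts per library were 0 in 14 of the 16 si-control libraries and 1 in the others, against 0 to 4, 1 to 4, 1 to 6 and 0 to 2 in the 4 si-dnmt groups. Without the expression filter, edgeR called Phlda2 in none of the 4 states (log2 fold change 3.40 ± 1.32 without cytokine, adjusted p = 0.149), and its values with TNF, IFN and TNF + IFN were 2.54 ± 1.16, 2.41 ± 1.17 and 3.68 ± 1.41. Rasgrf1, a Ras exchange factor, was highest with TNF + IFN under either siRNA. It had 2 counts without cytokine and 19 with TNF + IFN in si-control, and 2 and 30 in si-dnmt, and edgeR without the filter gave 3.10 ± 0.97 (adjusted p = 0.0200) and 4.08 ± 0.94 (adjusted p = 0.00142). Phlda2 and Rasgrf1 were singled out after their values were seen. Nap1l5, a retrogene, held 27 and 25 counts with si-control and si-dnmt (ratio 0.890, interval 0.495 to 1.59).

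The first question was which tested imprinted genes changed when Dnmt1 was silenced. Calls required an adjusted p under 0.05, with Benjamini-Hochberg adjustment over the 15250 genes. Without cytokine, 3 of 31 imprinted genes were higher and 2 lower with si-dnmt, where 9.57% of all genes tested were higher and 8.89% lower. With TNF, 4 were higher and 0 lower (10.4% and 9.59% of all genes). With IFN, 5 were higher and 4 lower (10.8% and 9.54%), and with TNF + IFN, 2 were higher and 1 lower (8.98% and 8.72%). The numbers called among imprinted genes thus lay near what those percentages give for 31 genes, and their median log2 fold change was −0.18, −0.07, −0.05 and −0.16 in the 4 states, beside medians within 0.01 of 0 for all genes.

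Over the 4 states, 11 imprinted genes were called in at least 1 state, 5 higher and 6 lower, with none called in both directions and 20 called in no state. The share of all genes called in at least 1 state is not given here, so these numbers are not read as particular to imprinted genes. In the fit without a replicate block, the genes called in most states were higher. Peg10, Impact, Igf2r and Blcap were higher in at least 3 states, which was true of 6.73% of all genes tested, and no imprinted gene was lower in at least 3 states, which was true of 6.04%. Blcap was called in all 4. With the replicate number as a block in the fit, Mest, Ndn and H13 were also lower in 3 states, and Asb4 was higher in all 4. The shares of all genes for these block counts are not given here.

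**Figure D2:**
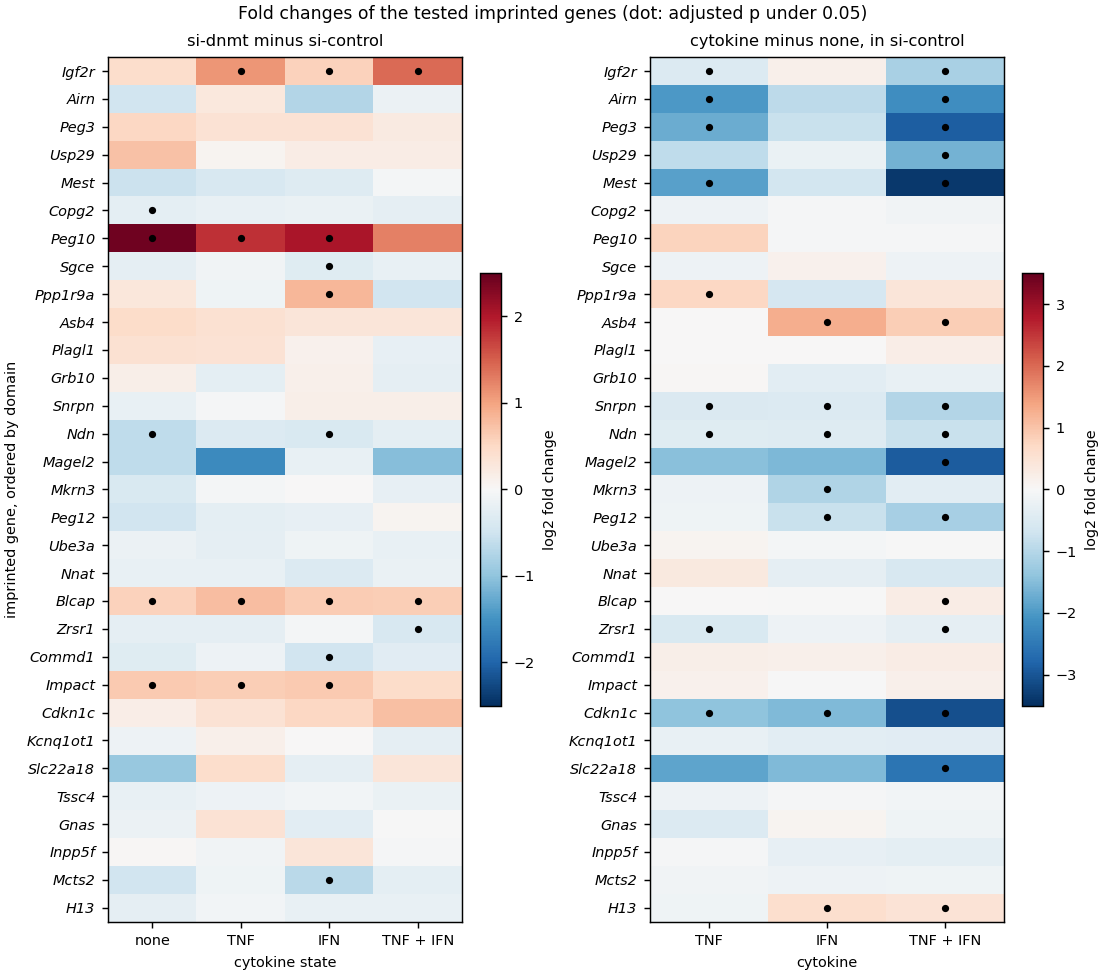
Log2 fold changes of the 31 tested imprinted genes, ordered by domain, for si-dnmt against si-control in the 4 cytokine states and for each cytokine against none in si-control. Dots mark an adjusted p under 0.05 in edgeR. Rows of repeated rises are seen for Peg10, Igf2r, Blcap and Impact on the left, and falls of Mest, Peg3 and Cdkn1c on the right.

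Peg10, a paternally expressed gene derived from a retrotransposon and needed in the placenta, had the largest called rise among the tested members without cytokine, with TNF and with IFN. In the si-control libraries its level was 2.25, 2.28, 5.23 and 2.96 CPM without cytokine, 4.12, 4.73, 6.57 and 6.59 with TNF, 2.13, 0.832, 5.89 and 3.62 with IFN and 2.59, 1.61, 3.88 and 4.5 with TNF + IFN. In the si-dnmt libraries, with the states in the same order here and for the genes that follow, it was 11.6, 12.7, 25.7 and 18.7, then 14.7, 16.0, 24.6 and 22.5, then 8.0, 7.73, 18.4 and 17.3 and 4.49, 3.78, 10.7 and 10.8. Every si-dnmt library lay above every si-control library of its state, except with TNF + IFN, where the groups overlapped. Replicates 3 and 4 were higher than replicates 1 and 2 in each of the 8 groups. Silencing raised it by 2.43 ± 0.45 on the log2 scale in the untreated cells (5.39-fold, adjusted p = 0.000276). The rise was 1.82 ± 0.43 under TNF (adjusted p = 0.00307) and 2.05 ± 0.45 under IFN (adjusted p = 0.00153), and the value under TNF + IFN was 1.25 ± 0.45 (adjusted p = 0.0525). With the replicate number as a block, the last value was 1.20 ± 0.22 and passed the test (adjusted p = 8.99e-05). Within replicates 1 and 2 alone and within 3 and 4 alone the values were 2.43 and 2.44 without cytokine and 0.96 and 1.35 with TNF + IFN.

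The neighbours of Peg10 were called in at most 1 state each. Sgce, the ε-sarcoglycan gene, shares a divergent promoter and its DMR with Peg10 and is also expressed from the paternal copy. Its log2 fold change was −0.23 ± 0.10, −0.08 ± 0.10, −0.31 ± 0.10 and −0.18 ± 0.10, and it was called lower with IFN (adjusted p = 0.0243). That call was lost in the absence of any 1 of 5 of the 8 libraries (adjusted p 0.0546 to 0.0863), namely si-control + IFN replicates 1 and 3 and si-dnmt + IFN replicates 1, 3 and 4. Ppp1r9a, which encodes the actin-binding protein neurabin, was higher with IFN (0.83 ± 0.24, adjusted p = 0.0130) and had values of 0.29, −0.11 and −0.47 in the other states, and without si-control + IFN replicate 2 its IFN value was 0.62 (adjusted p = 0.0592). Asb4, an ankyrin repeat and SOCS box gene expressed in vascular cells, had values of 0.45 ± 0.24, 0.38 ± 0.24, 0.30 ± 0.23 and 0.30 ± 0.23. None of those passed the test, whereas with the replicate block all 4 did (0.46, 0.41, 0.31 and 0.31, each ± 0.08, adjusted p 8.01e-05 to 0.00443).

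Impact encodes an inhibitor of the stress kinase GCN2 and is expressed from the paternal copy. The si-control libraries held 73.4, 85.5, 72.7 and 88.4 CPM without cytokine, 58.1, 67.0, 113 and 119 with TNF, 86.8, 78.3, 83.1 and 66.5 with IFN and 82.6, 84.2, 96.9 and 99.0 with TNF + IFN. The si-dnmt libraries held 115, 106, 145 and 135, then 91.3, 115, 174 and 170, then 115, 127, 139 and 116 and 115, 115, 132 and 137. All si-dnmt libraries were above those of si-control except with TNF, where replicates 3 and 4 of both siRNAs were high and the groups overlapped. The rise was 0.65 ± 0.19 on the log2 scale in untreated cells (adjusted p = 0.0151), 0.62 ± 0.19 under TNF (adjusted p = 0.0184) and 0.66 ± 0.19 under IFN (adjusted p = 0.0123). Under TNF + IFN the value was 0.46 ± 0.19 (adjusted p = 0.0870). The last passed with the replicate block (0.46 ± 0.15, adjusted p = 0.0173). The call without cytokine was lost without si-dnmt replicate 3 (0.57, adjusted p = 0.0617), and the call with TNF when any 1 of these was left out: replicates 1 and 2 of si-control + TNF, and replicates 3 and 4 of si-dnmt + TNF (adjusted p 0.0793 to 0.0943).

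Igf2r, the receptor that clears IGF2 and carries mannose 6-phosphate proteins to the lysosome, is expressed from the maternal copy. Its si-control libraries held 6.05, 5.88, 7.25 and 6.9 CPM without cytokine, 4.59, 5.43, 4.28 and 4.36 with TNF, 6.22, 7.8, 8.39 and 6.96 with IFN and 3.27, 3.54, 2.09 and 2.86 with TNF + IFN. Its si-dnmt libraries held 10.0, 10.0, 7.84 and 7.47, then 10.1, 12.9, 8.48 and 8.84, then 13.3, 9.79, 9.29 and 11.1 and 9.72, 7.97, 6.99 and 6.81. The siRNAs did not overlap in any of the 4 states. In untreated cells the log2 difference was 0.44 ± 0.16 (adjusted p = 0.0597). It was 1.11 ± 0.17 under TNF (adjusted p = 1.92e-05), 0.57 ± 0.16 under IFN (adjusted p = 0.0130) and largest under TNF + IFN, at 1.41 ± 0.17 (2.66-fold, adjusted p = 1.33e-06). The first of these passed with the replicate block (0.42 ± 0.14, adjusted p = 0.0265), and the value was 0.76 in replicates 1 and 2 and 0.11 in replicates 3 and 4. The IFN call was lost without si-dnmt + IFN replicate 1 (0.46, adjusted p = 0.0637).

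Airn, the noncoding RNA that starts inside Igf2r on the paternal copy and silences it there, was near the limit of detection. Its highest level in any library was 1.61 CPM, and its siRNA log2 fold changes of −0.48 ± 0.53, 0.26 ± 0.64, −0.74 ± 0.60 and −0.14 ± 0.72 did not pass the test. The promoter of Airn is the maternally methylated DMR of this domain.

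Blcap encodes a small membrane protein and surrounds Nnat, the neuronatin gene, in one of its introns. In si-control it was at 30.2, 31.4, 30.6 and 31.1 CPM without cytokine, 27.7, 29.7, 32.9 and 32.6 with TNF, 30.9, 33.8, 29.2 and 28.3 with IFN and 40.2, 40.5, 31.5 and 34.6 with TNF + IFN. In si-dnmt it was at 40.8, 45.4, 50.4 and 48.3, then 45.6, 49.3, 58.4 and 57.2, then 45.5, 43.5, 50.2 and 50.1 and 52.7, 52.4, 58.7 and 59.6. No si-dnmt library reached down to the si-control range in any state. The log2 fold changes were 0.58, 0.78, 0.63 and 0.61, each ± 0.09, with adjusted p from 8.21e-07 to 4.98e-05, and both replicate sets gave a called rise in each state. Nnat, whose own promoter is the DMR and which is expressed from the paternal copy, had values of −0.18 ± 0.41, −0.19 ± 0.41, −0.34 ± 0.43 and −0.17 ± 0.44 and passed in no state.

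**Figure D3:**
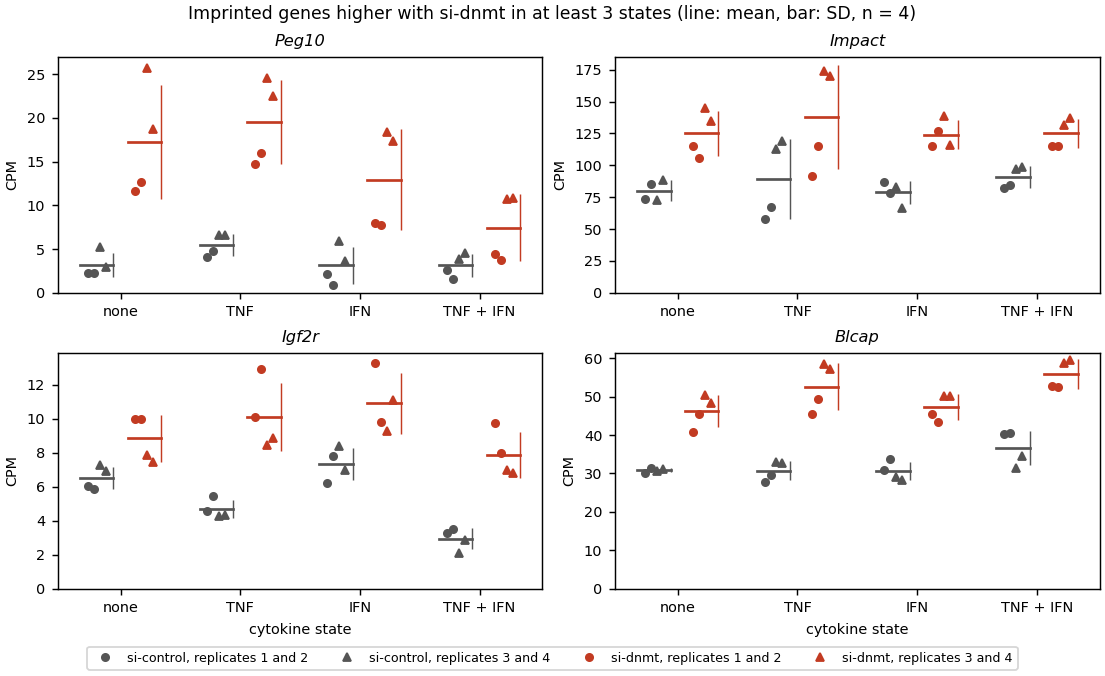
CPM in every library for Peg10, Impact, Igf2r and Blcap, by cytokine state, with si-control in grey and si-dnmt in red. Circles are replicates 1 and 2, triangles replicates 3 and 4, lines the group means and thin bars the SD (n = 4). The si-dnmt libraries of Igf2r and Blcap lie above those of si-control in all 4 states.

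Promoter sequences are shown for genes that rose and for a germline DMR promoter that was not called. Of the 44 imprinted genes, 38 had an entry in RefSeq's promoter table (GRCm38.p6; the build behind the counts is not given in the sources used here), with 55 start sites. Peg10 and Impact were not among them. The 250 bases before each start held a median of 11 CpG dinucleotides, the substrate of DNMT1, over the imprinted windows and 6 over all 32851 windows. The motif TGCCGC, bound when methylated by the imprint-protecting factor ZFP57, was found on either strand in 9 of the 55 windows (8 genes) and in 8.68% of all windows. The windows of Igf2r and Blcap, which rose, and of Mest, whose own promoter is a DMR and which was not called, are given 5′ to 3′ on the strand of the gene, with each CG in capitals. They contain no annotated exon and were chosen after the values were seen.
Igf2r: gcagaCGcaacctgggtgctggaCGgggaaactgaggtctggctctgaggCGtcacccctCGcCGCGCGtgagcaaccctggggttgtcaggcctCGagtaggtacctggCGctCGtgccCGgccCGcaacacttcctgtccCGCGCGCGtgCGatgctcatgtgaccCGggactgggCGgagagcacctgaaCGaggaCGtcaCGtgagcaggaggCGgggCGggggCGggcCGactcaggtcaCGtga
Blcap: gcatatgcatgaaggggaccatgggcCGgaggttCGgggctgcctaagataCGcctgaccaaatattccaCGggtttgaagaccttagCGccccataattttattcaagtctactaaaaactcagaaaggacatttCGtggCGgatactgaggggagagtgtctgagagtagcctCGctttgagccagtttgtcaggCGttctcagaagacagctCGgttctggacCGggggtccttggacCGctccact
Mest: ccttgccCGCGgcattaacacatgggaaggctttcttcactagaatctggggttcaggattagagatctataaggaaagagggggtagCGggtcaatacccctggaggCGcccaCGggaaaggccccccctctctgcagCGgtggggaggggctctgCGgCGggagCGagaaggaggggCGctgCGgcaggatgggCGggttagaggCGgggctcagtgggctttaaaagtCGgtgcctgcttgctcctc

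The Igf2r window (chr17:12769707-12769956, minus strand) held 27 CpG, a number reached by 8.56% of windows, and no TGCCGC. The Blcap window (chr2:157566362-157566611, minus strand) held 12 CpG, a number reached by 33.5% of windows, and no TGCCGC. The Mest window (chr6:30737800-30738049, plus strand) held 14 CpG, a number reached by 29.4% of windows, and TGCCGC 2 times. A match or its absence describes only these letters.

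The tested members were also divided by where the germline DMR lies: at the promoter of the gene itself (13 genes), at another promoter of the gene (3 genes: Grb10, Gnas and Inpp5f) or elsewhere in the domain (15 genes). Of the 13 genes whose own promoter is a DMR, 2 (Peg10 and Impact) were higher and 0 lower without cytokine and again with TNF, 2 were higher and 2 lower with IFN, and 0 were higher and 1 lower with TNF + IFN. Their log2 fold changes lay above 0 for 5, 7, 7 and 5 of the 13, with medians of −0.18, 0.06, 0.01 and −0.14. Of the 15 with a DMR elsewhere, 1, 2, 3 and 2 were higher and 2, 0, 2 and 0 lower in the 4 states, with medians of −0.22, −0.11, −0.10 and −0.19. The 3 genes with a DMR at another promoter were not called, and their medians were 0.03, −0.09, 0.13 and −0.02. These counts stand beside the 8.98% to 10.8% of all genes that were higher and the 8.72% to 9.59% that were lower. The place of the DMR was listed for each gene, and methylation was not measured in these cells.

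**Figure D4:**
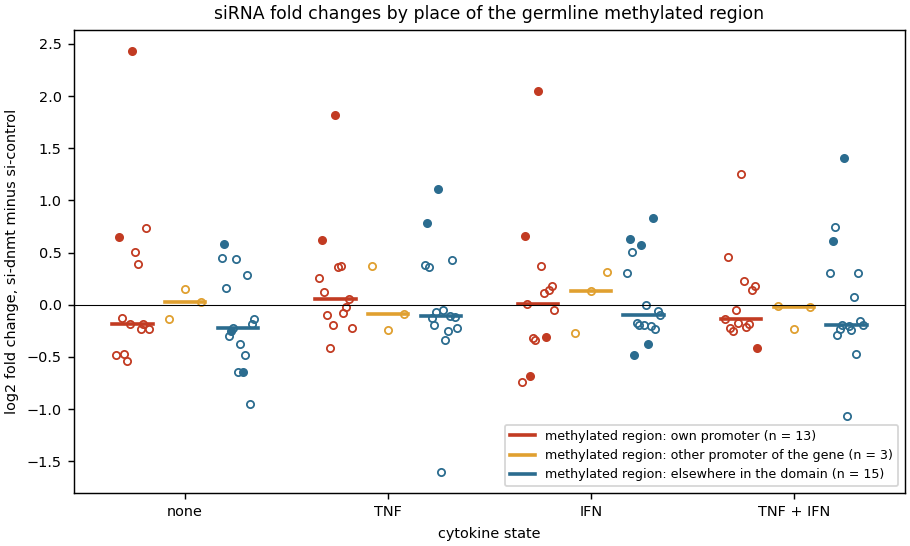
Log2 fold change of each tested imprinted gene, si-dnmt minus si-control, by cytokine state and by the listed place of the germline methylated region. Filled points were called in edgeR, and lines are medians. The own-promoter and elsewhere classes spread to both sides of 0 in each state, with Peg10 as the highest red point. All 3 genes with the region at another promoter lay below 0 with TNF + IFN.

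The genes were then divided by the copy listed as normally expressed. Imprinting of these genes was not measured in the lung ECs, so the listed copy may not hold there for each gene. Of 18 tested genes listed as expressed from the paternal copy, 2, 2, 2 and 0 were higher and 1, 0, 3 and 1 lower in the 4 states, with medians of −0.20, −0.06, −0.03 and −0.15. Of 12 listed as expressed from the maternal copy, 1, 2, 3 and 2 were higher and 1, 0, 1 and 0 lower, with medians of 0.01, −0.09, 0.03 and −0.17.

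The 6 genes called lower were each called in 1 or 2 states, by small amounts. Ndn, a MAGE family gene of the Snrpn domain, was at 45.5, 44.9, 50.1 and 43.2 CPM in si-control and 33.9, 29.9, 25.0 and 28.9 CPM in si-dnmt without cytokine, with no overlap. It differed by −0.64 ± 0.13 on the log2 scale (adjusted p = 0.000713), and under IFN by −0.38 ± 0.13 (adjusted p = 0.0348). The IFN call did not survive the loss of any 1 of 5 of its 8 libraries (si-control + IFN replicates 2 and 4, si-dnmt + IFN replicates 1, 3 and 4; adjusted p 0.0607 to 0.119). With TNF it was −0.34 ± 0.13 (adjusted p = 0.0661), which passed with the replicate block (−0.33 ± 0.11, adjusted p = 0.0203).

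Mcts2, a retrogene inside H13, fell by 0.68 on the log2 scale with IFN (SE 0.19, adjusted p = 0.0100), and its value without cytokine (−0.47 ± 0.18) passed with the replicate block (−0.46 ± 0.16, adjusted p = 0.0324). Commd1, a gene of copper handling, fell by 0.48 with IFN (SE 0.16, adjusted p = 0.0301), and Zrsr1, a splicing factor retrogene within Commd1, fell by 0.41 with TNF + IFN (SE 0.12, adjusted p = 0.0137). Copg2, a coat protein gene whose end overlaps that of Mest, fell by 0.25 without cytokine (SE 0.09, adjusted p = 0.0458), and its value with TNF + IFN (−0.23 ± 0.09) passed with the block (−0.22 ± 0.08, adjusted p = 0.0292). The exons of Commd1 and Zrsr1, and those of Copg2 and Mest, overlap on opposite strands, and no source used here states whether strand was counted. Reads over the overlaps cannot be told apart. Retrogenes can also share reads with their parent genes. The Commd1 call was lost in the absence of any 1 of 4 libraries (si-control + IFN replicates 3 and 4, si-dnmt + IFN replicates 1 and 3; adjusted p 0.0828 to 0.104). The Zrsr1 call was lost without si-control + TNF + IFN replicate 1 or si-dnmt + TNF + IFN replicate 4 (adjusted p 0.0713 and 0.0737). The Copg2 call was lost without any of 7 of its 8 libraries, the exception being si-dnmt replicate 1 (adjusted p 0.0518 to 0.153).

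The remaining well-known imprinted genes did not pass the test in any state. Peg3, a paternally expressed zinc finger gene, was at 269, 275, 144 and 158 CPM in si-control without cytokine and 75.2, 74.2, 53.0 and 52.4, 150, 159, 93.9 and 88.6 and 28.1, 32.6, 28.2 and 26.3 with TNF, IFN and TNF + IFN. In si-dnmt it was at 445, 421, 169 and 169, then 101, 99.7, 60.4 and 65.4, then 218, 206, 103 and 106 and 42.0, 38.4, 28.4 and 26.3. Replicates 1 and 2 held the higher values in most groups, and the siRNAs overlapped in every state. Its log2 fold change was 0.51 ± 0.31, 0.36 ± 0.31, 0.37 ± 0.31 and 0.23 ± 0.32. With the replicate block the first value was 0.45 ± 0.14 and passed (adjusted p = 0.0116). Without cytokine it was 0.68 in replicates 1 and 2 (adjusted p = 3.63e-06) and 0.17 in replicates 3 and 4 (adjusted p = 0.0993). Its neighbour Usp29, a ubiquitin peptidase gene, had values of 0.74 ± 0.36, 0.06 ± 0.38, 0.18 ± 0.37 and 0.18 ± 0.42, of which the first passed only with the block (0.70 ± 0.22, adjusted p = 0.0161).

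Mest, a paternally expressed hydrolase-like gene, had log2 differences below 0. Its si-control libraries were at 372, 468, 411 and 430 CPM without cytokine and 139, 155, 76.8 and 74.7, 277, 299, 248 and 254 and 51.3, 52.7, 26.1 and 30.8 with TNF, IFN and TNF + IFN. Its si-dnmt libraries were at 365, 350, 215 and 228, then 92.3, 98.5, 68.9 and 74.9, then 278, 264, 145 and 177 and 39.2, 50.8, 31.8 and 34.0. The siRNAs were separate without cytokine and overlapped in the other 3 states. The log2 differences were −0.54 ± 0.25 (adjusted p = 0.136), −0.41 ± 0.25, −0.32 ± 0.25 and −0.05 ± 0.25. With the block the first 3 were −0.60, −0.37 and −0.37, each ± 0.14, and passed (adjusted p = 0.00104, 0.0386 and 0.0340). The replicate sets differed: −0.22 in replicates 1 and 2 and −0.93 in replicates 3 and 4 without cytokine, but −0.63 and −0.08 with TNF.

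Plagl1, a zinc finger transcription factor gene, was at 2.48, 3.92, 6.94 and 6.95 CPM in si-control without cytokine and 4.55, 3.37, 7.09 and 5.43, 3.02, 2.86, 8.12 and 6.53 and 7.35, 7.23, 4.87 and 4.39 with TNF, IFN and TNF + IFN. After Dnmt1 silencing Plagl1 was at 4.49, 4.83, 9.17 and 8.12, then 4.89, 6.85, 7.6 and 7.04, then 3.61, 2.14, 8.83 and 7.5 and 4.86, 4.08, 5.72 and 5.97. Replicates 3 and 4 were higher than 1 and 2 except in si-control + TNF + IFN, and the siRNAs overlapped throughout, with log2 fold changes of 0.39 ± 0.38, 0.37 ± 0.38, 0.11 ± 0.38 and −0.21 ± 0.38.

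Grb10, an adaptor that restrains insulin and IGF signalling, was at 230, 252, 347 and 365 CPM in si-control without cytokine and 252, 278, 345 and 362, 196, 191, 274 and 260 and 221, 228, 272 and 273 with TNF, IFN and TNF + IFN. After Dnmt1 silencing Grb10 was at 258, 253, 434 and 378, then 228, 219, 297 and 304, then 211, 208, 307 and 281 and 193, 199, 231 and 225. The siRNAs overlapped in each state, and the values were 0.15, −0.24, 0.13 and −0.23, each ± 0.18. With the block, those with TNF (−0.24 ± 0.07, adjusted p = 0.0130) and TNF + IFN (−0.23 ± 0.07, adjusted p = 0.0205) passed.

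Snrpn, a spliceosomal protein gene whose promoter is the DMR of its domain, was at 5.39, 5.3, 6.06 and 5.42 CPM in si-control without cytokine and 3.69, 3.94, 4.32 and 3.71, 3.53, 4.42, 4.03 and 4.05 and 2.69, 2.71, 2.4 and 3.12 with TNF, IFN and TNF + IFN. After Dnmt1 silencing Snrpn was at 4.58, 4.74, 4.84 and 5.45, then 3.52, 4.03, 4.29 and 3.6, then 3.55, 4.2, 5.33 and 4.56 and 2.52, 3.66, 3.41 and 2.47. The siRNAs overlapped in each state, and the log2 fold changes of −0.18 ± 0.13, −0.02 ± 0.14, 0.14 ± 0.14 and 0.14 ± 0.14 did not pass the test. An annotated gene on the same strand, Gm38393, shares exon sequence with Snrpn.

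Cdkn1c, which encodes the cell-cycle inhibitor p57, was at 4.59, 3.13, 2.37 and 1.34 CPM in si-control without cytokine and 1.46, 1.17, 0.519 and 1.11, 0.672, 0.78, 1.53 and 0.917 and 0.384, 0.312, 0.37 and 0.264 with TNF, IFN and TNF + IFN. In si-dnmt it was at 4.49, 3.85, 2.01 and 2.47, then 2.1, 1.31, 0.876 and 1.18, then 1.39, 2.14, 0.644 and 1.38 and 0.553, 0.659, 0.347 and 0.691. The groups overlapped, with values of 0.16 ± 0.35, 0.36 ± 0.38, 0.51 ± 0.39 and 0.75 ± 0.48. Kcnq1ot1, the noncoding RNA whose promoter DMR controls Cdkn1c and its neighbours, had values of −0.13 ± 0.30, 0.12 ± 0.31, 0.01 ± 0.31 and −0.22 ± 0.31.

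Gnas, the gene of the stimulatory G protein α subunit, was at 52.6, 35.4, 57.7 and 39.6 CPM in si-control without cytokine and 33.9, 29.8, 28.8 and 40.9, 35.7, 44.7, 43.9 and 72.6 and 43.0, 47.1, 42.2 and 34.9 with TNF, IFN and TNF + IFN. In si-dnmt it was at 34.5, 36.8, 48.9 and 47.8, then 46.0, 39.9, 50.2 and 36.0, then 32.2, 32.2, 43.6 and 55.6 and 25.4, 41.8, 40.7 and 58.2. The siRNAs overlapped, and the values were −0.14, 0.37, −0.27 and −0.01, each ± 0.22. The other tested genes that were not called (Magel2, Mkrn3, Peg12, Ube3a, Slc22a18, Tssc4, Inpp5f and H13) had log2 fold changes between −1.60 (Magel2 with TNF, SE 0.97) and 0.43 (Slc22a18 with TNF, SE 0.88). Of these, the block added Slc22a18 (−0.91 ± 0.35) and H13 (−0.22 ± 0.07) without cytokine, Inpp5f (0.30 ± 0.10) and H13 (−0.19 ± 0.07) with IFN, and H13 (−0.19 ± 0.07) with TNF + IFN.

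Replicates 1 and 2 stood apart from replicates 3 and 4 in every group, and the replicate block was also used for the counts. It raised the number of imprinted genes called from 5 to 13 without cytokine (7 higher and 6 lower), from 4 to 8 with TNF (5 and 3), from 9 to 13 with IFN (7 and 6) and from 3 to 9 with TNF + IFN (5 and 4). The same fit called 32.4%, 33.4%, 34.5% and 30.8% of all genes in either direction, so calls became more frequent among all genes as well.

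Genes that lay and guard imprints were examined from a list of 18, of which 14 were tested. Called in all 4 states were Dnmt1 itself, the de novo methyltransferases Dnmt3a (0.62, 0.56, 0.96 and 0.73, higher) and Dnmt3b (1.36, 0.86, 1.39 and 0.82, higher), and Ehmt2, the histone H3K9 methyltransferase G9a (−0.79, −0.74, −0.80 and −0.68, lower). Zfp57 was called in 1 state (−0.55 ± 0.15 with IFN, adjusted p = 0.0112), and Zfp445 and Ctcf in none. Tet3 was lower in 2 states (−0.64 to −0.01 over the states) and Trim28 in 1 (−0.29 to −0.13), while Smchd1 was higher in 1 (−0.05 to 0.35). Of 44 further imprinted genes outside the members, 27 were tested, and 6 were higher and 1 lower without cytokine, 5 and 0 with TNF, 4 and 1 with IFN and 3 and 1 with TNF + IFN, where 9.57% and 8.89%, 10.4% and 9.59%, 10.8% and 9.54%, and 8.98% and 8.72% of all genes were. Their medians were 0.16, 0.20, 0.12 and 0.22. Gab1, an adaptor of receptor tyrosine kinases (0.68, 1.00, 0.52 and 0.72), and Osbpl5, a lipid transfer gene of the Kcnq1ot1 domain (0.50, 0.71, 0.73 and 0.46), were higher in all 4 states. Cobl, an actin nucleator gene, had values of 1.64, 1.38, 2.03 and 1.60 and passed in all but the TNF state. Tspan32 (1.17 to 2.71 over the states), Pon3 (0.22 to 0.56) and Sfmbt2 (0.11 to 0.61) were higher in 2 states each and Cd81 (0.07 to 0.29) in 1, while Kcnq1 (−1.14 to −0.37) was lower in 2 and Jade1 (−0.83 to −0.55) in 1.

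The second question was how imprinted genes respond to the cytokines themselves. In si-control, TNF lowered 8 of the 31 imprinted genes and raised 1, where 14.6% of all genes fell and 16.1% rose. IFN lowered 5 and raised 2 (5.92% and 8.57% of all genes), and TNF + IFN lowered 12 and raised 3 (21.6% and 23.5%). The median log2 fold change of the imprinted genes was −0.18, −0.23 and −0.31, beside −0.01 for all genes each time. In all, 13 genes fell and 4 rose with at least 1 cytokine state, and 3 (Snrpn, Ndn and Cdkn1c) fell in all 3. Shares of all genes for these joint counts are not given here. Endothelial markers fell at the same time, with 9 of 12 called lower by TNF + IFN (median −0.84), and the part of that change in the fall of imprinted genes was not tested.

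The 4 largest falls with TNF + IFN were those of Mest, Cdkn1c, Magel2 and Peg3, of which Magel2 rested on few counts and is described with its domain. The Mest mean fell from 420 ± 39.7 CPM (SD, n = 4) to 112 ± 41.9 with TNF and 40.2 ± 13.7 with TNF + IFN, with log2 fold changes of −1.91 ± 0.26 (adjusted p = 1.56e-06) and −3.38 ± 0.27 (10.4-fold, adjusted p = 3.61e-11). The Peg3 mean fell from 211 ± 70.5 to 63.7 ± 12.7 and 28.8 ± 2.68 CPM (−1.73 ± 0.32 and −2.88 ± 0.33, adjusted p = 0.000122 and 4.28e-08). For both genes, all libraries of those cytokine groups lay below all untreated libraries. IFN alone gave −0.64 ± 0.25 for Mest and −0.78 ± 0.31 for Peg3, which passed with the block only (−0.66 ± 0.14 and −0.77 ± 0.14, adjusted p = 0.000427 and 7.34e-05). Cdkn1c fell from 2.86 ± 1.37 CPM to 1.07 ± 0.395 with TNF, 0.974 ± 0.382 with IFN and 0.333 ± 0.055 with TNF + IFN (−1.42 ± 0.37, −1.55 ± 0.38 and −3.08 ± 0.43, all called).

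The same genes responded in the si-dnmt cells. TNF + IFN against no cytokine gave −2.89 ± 0.27 for Mest, −3.16 ± 0.34 for Peg3 and −2.49 ± 0.41 for Cdkn1c there, with adjusted p of at most 1.30e-05. Peg10, which did not pass in si-control (−0.03 ± 0.46), fell in si-dnmt by 1.21 (SE 0.42, adjusted p = 0.0236).

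**Figure D5:**
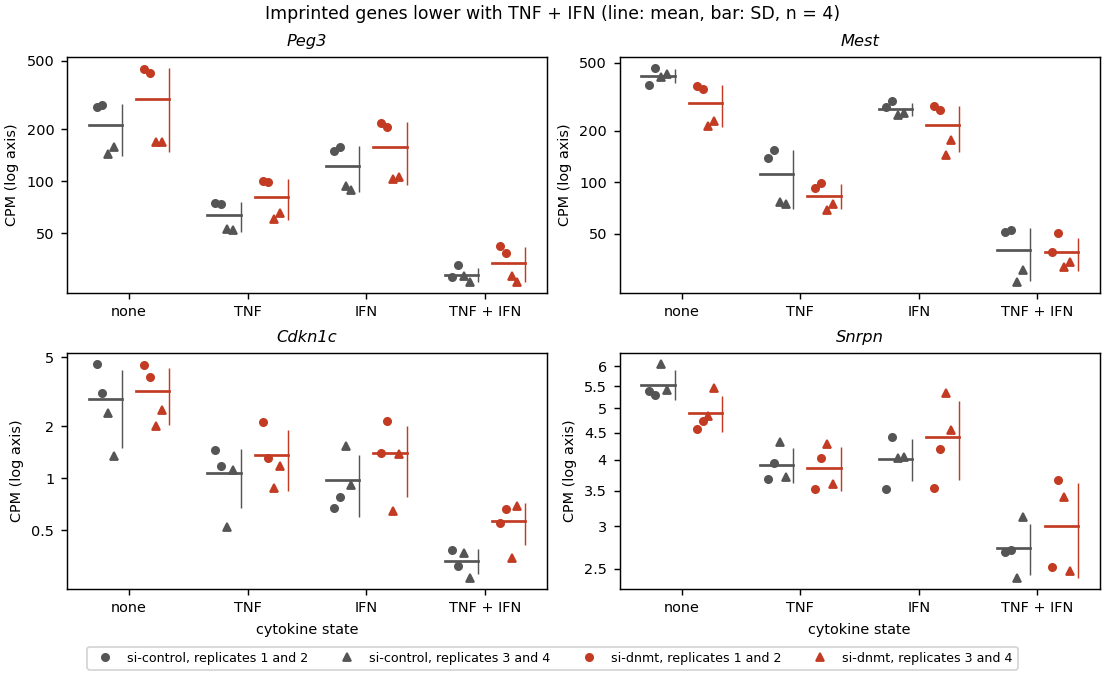
CPM on a log axis in every library for Peg3, Mest, Cdkn1c and Snrpn, by cytokine state, with si-control in grey and si-dnmt in red. Circles are replicates 1 and 2, triangles replicates 3 and 4, lines the group means and thin bars the SD (n = 4). The mean of each of the 4 genes is lowest with TNF + IFN, with either siRNA.

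In the Snrpn domain, 5 of the 6 tested genes fell with at least 1 cytokine state in si-control. The share of all genes for this joint count is not given here, so it is not read as particular to the domain. Snrpn fell by 0.50, 0.47 and 1.02 on the log2 scale with TNF, IFN and TNF + IFN (each SE 0.14, adjusted p = 0.00579, 0.0192 and 7.71e-07) and Ndn by 0.43, 0.46 and 0.77 (each SE 0.13, adjusted p = 0.0116, 0.0148 and 1.64e-05). Peg12 fell with IFN (−0.77 ± 0.24) and TNF + IFN (−1.17 ± 0.24), Mkrn3 with IFN (−1.05 ± 0.34) and Magel2 with TNF + IFN (−2.90 ± 0.87), whereas Ube3a, the ubiquitin ligase gene of the same domain, had values of 0.10, −0.07 and −0.02, each ± 0.10. Magel2 was at most 0.756 CPM in any library, and 3 of its 4 si-control + TNF + IFN libraries held 0 counts, so that its value was −6.54 without replicate 4 of that group, within a range of −6.54 to −2.48 over the 8 omissions. Several of these calls were lost on leaving out a single library. For Mkrn3 with IFN these were si-control replicate 1 and si-control + IFN replicates 1 and 4 (adjusted p 0.108 to 0.203). For Peg12 with IFN they were si-control replicates 1 and 2 and si-control + IFN replicates 3 and 4 (0.0565 to 0.0920). For Snrpn with IFN they were si-control replicate 3 and si-control + IFN replicate 1 (0.0539 and 0.0585). For Ndn they were si-control + TNF replicates 3 and 4 with TNF (0.0538 and 0.0596) and si-control + IFN replicate 1 with IFN (0.0502).

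In the Igf2r domain, Airn fell by 2.00 with TNF (SE 0.59, adjusted p = 0.0107) and by 2.18 with TNF + IFN (SE 0.61, adjusted p = 0.00479), from 1.29 ± 0.382 CPM to 0.32 ± 0.392 and 0.281 ± 0.132 CPM. One library, si-control + TNF replicate 2, held 19 Airn counts beside 0 to 5 in the other replicates of its group, and without it the TNF value was −3.24, within a range of −3.24 to −1.60 over the omission of each of the 8 libraries. Igf2r fell as well, by 0.48 with TNF (SE 0.17, adjusted p = 0.0268) and by 1.14 with TNF + IFN (SE 0.17, adjusted p = 3.12e-06), and the TNF call was lost without any 1 of si-control replicates 3 and 4 and si-control + TNF replicates 1, 3 and 4 (adjusted p 0.0513 to 0.0758). In si-dnmt, the TNF + IFN value of Igf2r was −0.17 ± 0.16 and did not pass, while that of Airn was −1.83 ± 0.63 (adjusted p = 0.0214). Usp29, Slc22a18 and Zrsr1 were also lower with TNF + IFN (−1.65 ± 0.39, −2.57 ± 0.91 and −0.31 ± 0.11). Single omission of replicates 3 and 4 of si-control and of replicates 1 and 2 of si-control + TNF + IFN ended the Slc22a18 call (adjusted p 0.0584 to 0.0784), and that of Zrsr1 without si-control replicate 4 or si-control + TNF + IFN replicate 3 or 4 (0.0780 to 0.104).

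With the replicate block, 15 imprinted genes were called with TNF, 11 with IFN and 17 with TNF + IFN, beside 43.4%, 25.4% and 55.0% of all genes in either direction. The added genes included Peg10, higher with TNF (0.84 ± 0.21, adjusted p = 0.00205), and Grb10, lower with IFN (−0.37 ± 0.07) and TNF + IFN (−0.24 ± 0.07). Also lower with the block were Usp29 (−0.82 ± 0.24), Copg2 (−0.20 ± 0.08), Magel2 (−1.60 ± 0.65), Slc22a18 (−1.76 ± 0.38) and Gnas (−0.48 ± 0.20) with TNF, Slc22a18 with IFN (−1.38 ± 0.39) and Inpp5f with TNF + IFN (−0.31 ± 0.11).

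The genes that rose with cytokine were Asb4, H13, Ppp1r9a and Blcap. Asb4 rose from 17.8 ± 4.56 CPM to 43.0 ± 12.6 with IFN and 32.4 ± 7.04 with TNF + IFN (1.28 ± 0.24 and 0.87 ± 0.24, adjusted p = 0.00026 and 0.00356), with no overlap, and had −0.00 ± 0.24 with TNF. H13, the signal peptide peptidase gene, rose from 134 ± 8.43 to 200 ± 24.8 and 184 ± 18.2 CPM in the same states (0.59 ± 0.09 and 0.47 ± 0.09, adjusted p = 8.14e-06 and 5.57e-05). Its retrogene neighbour Mcts2 had −0.17 ± 0.18 and −0.15 ± 0.18. Ppp1r9a was higher with TNF (0.72 ± 0.23) and Blcap with TNF + IFN (0.25 ± 0.09). Single omission of replicates 1 and 2 of si-control and of replicate 3 of si-control + TNF ended the Ppp1r9a call (adjusted p 0.0513 to 0.0782), and that of Blcap without si-control replicate 1, 3 or 4 or si-control + TNF + IFN replicate 1 or 2 (0.0558 to 0.130).

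The third question was whether the siRNA changes the cytokine response of an imprinted gene. In the interaction of siRNA with TNF + IFN, edgeR called 0 of the 31 genes, while 0.531% of all genes were called, and 3 had an unadjusted p under 0.05. The interactions with TNF and IFN called 0 imprinted genes each (0.0328% and 0.0459% of all genes), with 1 and 0 at an unadjusted p under 0.05. DESeq2 called 1, 0 and 0. The largest value relative to its error was that of Igf2r with TNF + IFN, 0.98 ± 0.24 (adjusted p = 0.0507), which DESeq2 called (0.97, adjusted p = 0.0102). With the replicate block, 3 genes were called and 4.18% of all genes: Igf2r (1.00 ± 0.22, adjusted p = 0.00699), Peg10 (−1.25 ± 0.30, adjusted p = 0.0130) and Grb10 (−0.37 ± 0.10, adjusted p = 0.0411). The Igf2r means behind this value were 6.52 ± 0.66 and 2.94 ± 0.629 CPM without cytokine and with TNF + IFN in si-control, and 8.84 ± 1.38 and 7.87 ± 1.33 CPM in si-dnmt. The Igf2r interaction also passed on leaving out any 1 of 4 libraries: si-control + TNF + IFN replicate 2 (1.07, adjusted p = 0.0409), si-dnmt replicate 1 (1.04, adjusted p = 0.0430), si-dnmt + IFN replicate 1 (0.98, adjusted p = 0.0459) or si-dnmt + TNF replicate 2 (0.98, adjusted p = 0.0401).

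The 31 tested genes were split by calls for the siRNA and for at least 1 cytokine state in si-control. Both were called for 5 genes (Blcap, Igf2r, Ndn, Ppp1r9a and Zrsr1), the siRNA alone for 6 and a cytokine alone for 12. Neither was called for 8 (Gnas, Grb10, Inpp5f, Kcnq1ot1, Nnat, Plagl1, Tssc4 and Ube3a). Cytokine responses in si-dnmt were not counted, where TNF + IFN lowered Peg10 and 1 of Gnas, Grb10 and Inpp5f. The siRNA and cytokine contrasts share the si-control libraries without cytokine, so these sets are not independent of each other. The shares of all genes in such sets are not given here, so the split is not read as particular to imprinted genes.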

How the data were processed

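RNA-seq libraries were made by the authors from si-control and si-dnmt lung ECs, and the deposited values were raw counts per gene and library. The submitters' processing notes list cutadapt 4.9, FastQC 0.12.1, MultiQC 1.27.1, featureCounts and DESeq2. No source used here names the genome build, annotation or strand setting. The merged count table equalled the sums of the per-library tables over identifiers sharing a symbol (0 cells differed, 203 identifiers).

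Genes were filtered with filterByExpr (minimum count 10), which kept 15250 genes and at least 99.91% of the counts of each library. All 32 libraries were fitted together with edgeR 4.0.16 (R 4.3.3, TMM factors 0.880 to 1.09, quasi-likelihood test, Benjamini-Hochberg adjustment over all genes tested). SEs were derived from the log2 fold change and its F statistic. The fit was also run on simulated counts that held no replicate sets. That run therefore does not bear on the split between replicates 1 and 2 and replicates 3 and 4. Alternatives were DESeq2 1.42.0, RLE scaling, no filter, the replicate number as a block, replicates 1 and 2 or 3 and 4 alone, and leaving out each library. Deviations from group means correlated at 0.3186 to 0.5391 between same-numbered si-control and si-dnmt libraries, at 0.3407 to 0.5634 between different numbers within replicates 1 and 2 or within 3 and 4, and at −0.5293 to −0.3256 across these sets. The deviations thus mark 2 sets rather than single numbers, and the block was given because each same-number correlation passed 0.1. The labels call the libraries biological replicates without naming separate cultures, so p-values measure the spread between these samples. Intervals and floors cover counting error only.

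The genes and lists were chosen with earlier results of these data known. All 44 genes were accounted for. Those described in every library were Igf2r, Peg3, Mest, Peg10, Plagl1, Grb10, Snrpn, Cdkn1c and Gnas, with any gene called in at least 3 siRNA contrasts, and H19, Igf2 and Meg3 where tested. Promoters of own-promoter genes called in at least 3 contrasts and of H19 were to be shown, but these were not among the matched entries, so others were chosen after the values were seen.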

Additional observations from a re-analysis of the deposited data

Results flagged for a closer look

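Snrpn without cytokine had 1 si-control library apart from the others. Replicate 3 was at 6.06 CPM, whereas the other 3 replicates lay between 5.30 and 5.42 CPM. It was the only one of 88 groups of 4 libraries (11 genes) in which the gap of an extreme library was this large for the range of its group, and chance alone gives about 1 such group in 20.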

How the results depend on the processing

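The replicate block and the replicate sets moved the counts most. Without cytokine, where 5 imprinted genes were called, the block called 13, replicates 1 and 2 alone 9 and replicates 3 and 4 alone 12. With TNF (4 called) these were 8, 8 and 10, and with TNF + IFN (3 called) 9, 8 and 9. For the cytokines in si-control, TNF (9 called) gave 15 with the block and 14 in replicates 3 and 4, and IFN (7 called) gave 11 with the block and 4 without the filter. For the interaction with TNF + IFN (0 called) the block gave 3, the replicate sets 2 and 5, and DESeq2 1. Leaving out 1 library gave 3 to 6 without cytokine, 3 to 5 with TNF, 5 to 9 with IFN, 2 to 4 with TNF + IFN, 7 to 10, 4 to 7 and 13 to 15 for TNF, IFN and TNF + IFN in si-control, and 0 to 1 for the interaction. The lowest counts came without si-dnmt replicate 3 (no cytokine), si-dnmt + IFN replicate 1 (IFN) and si-control + IFN replicate 1 (IFN in si-control). Magel2 gave no value in replicates 3 and 4, nor Slc22a18 in replicates 1 and 2. Shares over all genes are given above only for edgeR on all libraries with and without the block. The counts from the other fits are therefore not read as particular to imprinted genes.

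Of 83 gene values examined (52 called), DESeq2 left 80 with the same direction and call, RLE scaling 79, no filter 71 and the block 74, with 9 more called under the block and none lost; the block changed no call beyond those named beside the results. Replicates 1 and 2 alone left 57 and replicates 3 and 4 alone 65. Values that changed sign were not called in either fit. In replicates 1 and 2 these were Plagl1 with IFN (−0.07) and Snrpn with IFN (−0.04), and in replicates 3 and 4 Cdkn1c with IFN (−0.20) and, with TNF + IFN, Mest (0.21), Plagl1 (0.34) and Gnas (0.36). Gnas with TNF + IFN was 0.01 with RLE scaling and with DESeq2. On leaving out 1 library, the range was −0.01 to 0.26 for Grb10 and −0.07 to 0.49 for Cdkn1c without cytokine, −0.07 to 0.03 for Snrpn with TNF, −0.20 to 0.42 for Plagl1 with IFN, and −0.20 to 0.11 for Mest and −0.22 to 0.17 for Gnas with TNF + IFN. The cause of these differences was not tested. At these depths, genes at a few counts could not be resolved to within several fold.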
